A study of Arabidopsis thaliana with 6 samples.

Results

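AT4G21870 encodes a small heat shock protein of the HSP20 family and was studied here with 8 related HSP20 loci of Arabidopsis thaliana. AT4G21870 was chosen because its log2 intensity differed between ara6-1 and wild-type (WT) plants, so its difference is a description and carries no test. The 8 related loci were taken by name, with the brightest probe set that named each one alone. A probe set is the group of array probes summarised into 1 value for a transcript. All 9 loci had such a probe set, exactly 1 each, among 28501 tested probe sets that stood for 16542 named genes. No filter on low values was applied, so all 9 were fitted.

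The arrays measured whole 14-day-old plants, 3 of ara6-1 and 3 of WT, both in the Columbia accession. The mutant ara6-1 is labelled a knock-out of ARA6, a plant-specific RAB5 GTPase of endosomal membrane traffic, and WT carries the intact gene. Seeds of both groups spent 1 day at 4 °C, and the plants then grew on MS plates at 23 °C under constant light, with no heat treatment named in the labels. The mutant is represented by 1 line, and the labels do not say whether the biological replicates were grown separately. The p-values therefore set a difference against the spread between these samples, and do not extend to other lines or growths.

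Small heat shock proteins share an alpha-crystallin domain, assemble into oligomers and hold unfolding proteins in a soluble state until ATP-driven chaperones such as HSP70 and HSP101 refold them. Many of their genes are nearly silent in unstressed leaves and are strongly induced by heat through heat shock transcription factors. Plants carry several classes of them, which sort to the cytosol and nucleus, mitochondria, plastids, the endoplasmic reticulum or peroxisomes.

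Array medians lay between 28.8 and 29.2 intensity units. ARA6 itself (AT3G54840) had log2 intensities of 6.98, 7.15 and 6.89 in ara6-1, against 7.99, 8.40 and 8.34 in WT, lower in every mutant array. A signal at 42.5% of the WT level remained in the mutant, and the ARA6 difference did not pass the test (adjusted p in limma = 0.140). ara6-1 replicate 1 and WT replicate 3 stood apart: over probe sets above the median intensity, the SD of their log2 deviations from the group mean was 0.165 and 0.169, and that of the other 4 arrays was 0.120 to 0.126. Over the same probe sets, the deviations of ara6-1 replicate 1 and WT replicate 3 had a Pearson's r of 0.289. The cause was not tested. Of the root, shoot and seed markers measured, 0 passed the test. The 6 measured root markers of 16 listed had summed intensities of 5263 to 5479 in ara6-1 and 4975 to 5078 in WT. Nearly all of that sum was 1 gene, PYK10 (AT3G09260), with 5009.2, 5137.7 and 5262 in ara6-1, against 4731.9, 4859.6 and 4731.3 in WT. Gene by gene, 3 root markers were higher and 3 lower in ara6-1, with a median log2 difference of 0.03. The 3 measured shoot markers of 16 summed to 6790 to 7118 in ara6-1 and 6376 to 7089 in WT. All 3 had positive log2 differences, with a median of 0.08. The 3 measured seed and embryo markers of 16 summed to only 18.6 to 19.6 in ara6-1 and 20.0 to 22.9 in WT. All 3 had negative log2 differences, with a median of -0.12. Of all probe sets, 50.4% had a negative difference. No marker value was at 0. The part of these markers in the differences below was not tested, and in whole plants fewer cells of a type and less RNA per cell cannot be told apart.

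The AT4G21870 transcript was at 39.8% of its WT level in the mutant. Its linear intensity was 37.4, 28.2 and 31.1 in ara6-1 replicates 1 to 3, against 78, 82.2 and 80.9 in WT replicates 1 to 3. On the log2 scale these values were 5.22, 4.82 and 4.96 in ara6-1, against 6.29, 6.36 and 6.34 in WT. Every mutant array lay below every WT array, and the WT arrays lay close together. The geometric mean intensity was 32.0 in ara6-1 and 80.3 in WT, and the SD on the log2 scale was 0.21 in ara6-1 and 0.04 in WT (n = 3 each). The log2 fold change of ara6-1 over WT, called the log2 difference from here on, was -1.33 ± 0.12 (SE), a 2.51-fold lower level, and its 95% interval in the moderated fit of limma ran from -1.62 to -1.04. Of the 28501 probe sets, 30 had a larger absolute log2 difference. The transcript was well within the range of the arrays in both groups, at percentile 52.1 of all probe sets in ara6-1 and 70.2 in WT. Its highest mutant value was in ara6-1 replicate 1, an array that stood apart. Without that array the log2 difference was -1.44, without WT replicate 3 it was -1.32, and without both it was -1.44.

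**Figure D1:**
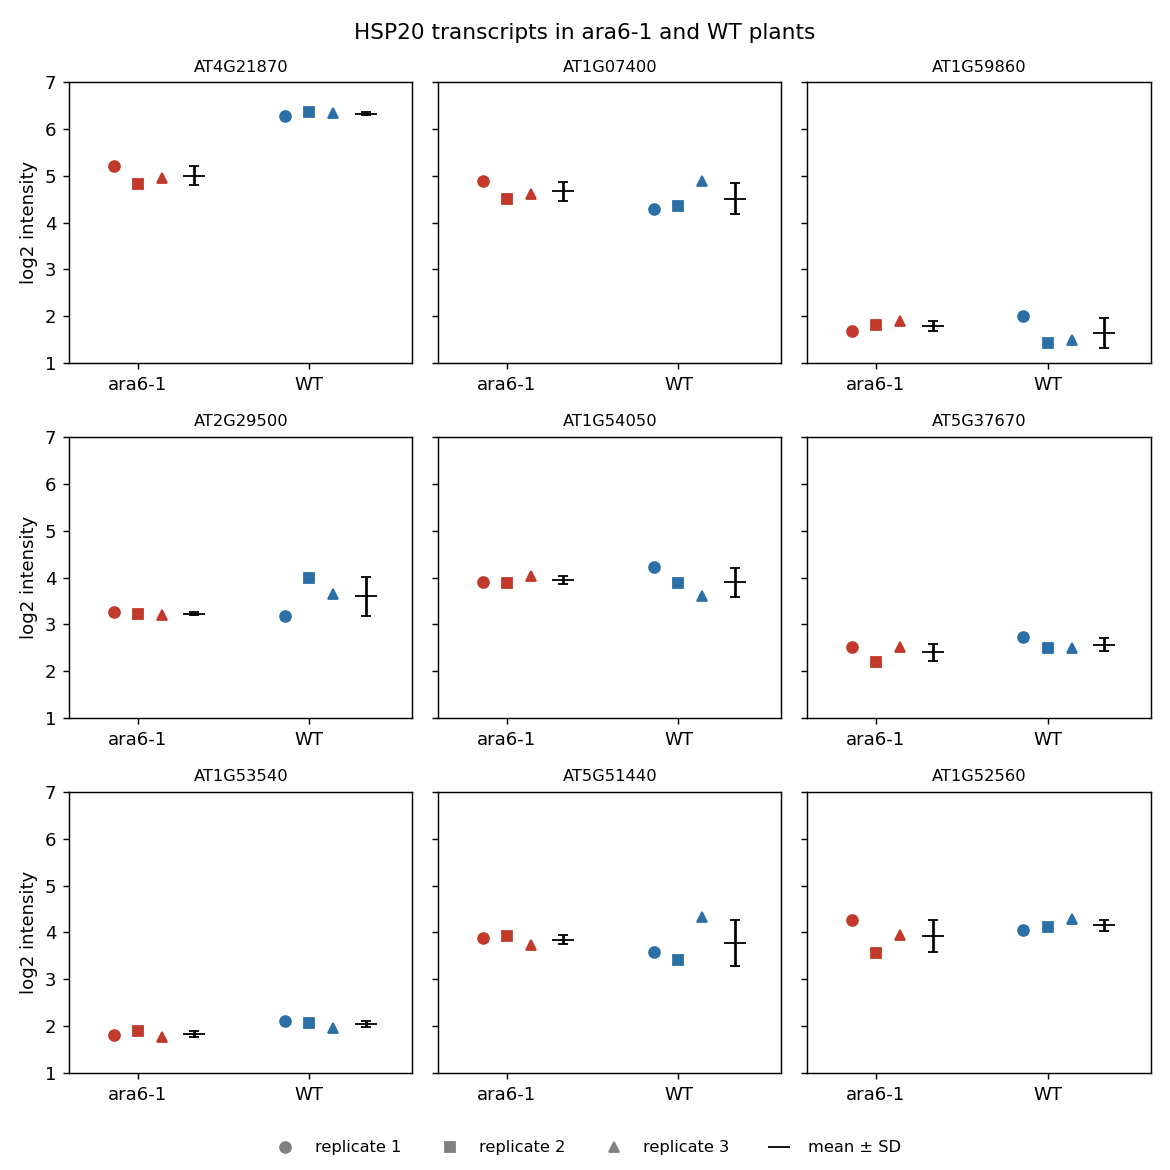
Log2 intensity (y axis) of each of the 9 HSP20 transcripts in the 3 ara6-1 arrays (red, left) and the 3 WT arrays (blue, right), with symbols for replicates and black bars for the group mean ± SD. AT4G21870 is lower in every mutant array, and in 7 of the other 8 panels the groups overlap.

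Of the 8 related HSP20 loci, 0 passed a Benjamini-Hochberg adjusted p of 0.05 (limma, adjusted over all probe sets), against 3 of 28501 probe sets (0.0105%) on the whole array, and 1 of 8 had an unadjusted p under 0.05, against 9.01% of all probe sets. Their means were lower in ara6-1 for 4 loci and higher for 4, with log2 differences from -0.38 to 0.16 and a median of -0.0598. The median was -0.00182 over all probe sets and -0.0446 over those below the median intensity, of which 58.4% had a negative difference. The lowest bound among their 8 95% intervals was -0.84 and the highest was 0.60. All 8 stood below the median intensity of the arrays, at percentiles 6.25 to 46.7. No detection call came with the values, so a difference in the dimmest of them may be understated.

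AT1G07400, AT2G29500, AT1G59860 and AT1G53540 encode cytosolic class I proteins, a class that is strongly induced by heat. AT1G07400 had log2 intensities of 4.90, 4.50 and 4.62 in ara6-1, against 4.29, 4.36 and 4.90 in WT. The groups overlapped, and the highest mutant and the highest WT value were equal and came from the arrays that stood apart. Its log2 difference was 0.16 ± 0.19 (SE; adjusted p in limma = 0.810), 0.35 without WT replicate 3 and 0.04 without ara6-1 replicate 1. AT2G29500 had 3.26, 3.23 and 3.19 in ara6-1, against 3.17, 4.00 and 3.64 in WT. The mutant values were close together inside the wide WT range. Its log2 difference of -0.38 ± 0.20 (SE) was the most negative of the 8 (adjusted p in limma = 0.607), and it was -0.18 without WT replicate 2 and -0.59 without WT replicate 1.

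The other class I transcripts were close to the dim end of the arrays, where the 5th percentile lay at log2 intensities of 1.54 to 1.68. AT1G59860 had 1.68, 1.81 and 1.89 in ara6-1, against 2.00, 1.43 and 1.49 in WT, and the mutant values again fell inside the WT range. Its log2 difference was 0.15 ± 0.17 (SE; adjusted p in limma = 0.795), with values from 0.05 without WT replicate 2 to 0.33 without WT replicate 1. AT1G53540 had 1.81, 1.89 and 1.77 in ara6-1, against 2.10, 2.07 and 1.96 in WT. It was the 1 locus of the 8 whose groups did not overlap, where 15.7% of all probe sets had groups that did not overlap and 7.85% had all mutant values below the WT values. Its log2 difference was -0.23 ± 0.10 (SE), a 1.17-fold lower value (adjusted p in limma = 0.552). At an intensity of 3.4 to 3.7 in ara6-1 and 3.9 to 4.3 in WT, that difference amounted to less than 1 intensity unit between any of the 6 arrays.

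AT1G54050 encodes the class III protein, which is found in the nucleus. It had 3.90, 3.89 and 4.04 in ara6-1, against 4.22, 3.89 and 3.60 in WT. The groups overlapped with nearly equal means of 3.94 ± 0.08 in ara6-1 and 3.90 ± 0.31 in WT (SD, n = 3 each), and the log2 difference was 0.04 with a 95% interval of -0.35 to 0.42 (adjusted p in limma = 0.955). AT5G37670 encodes a peroxisomal small heat shock protein. It had 2.51, 2.20 and 2.51 in ara6-1, against 2.72, 2.49 and 2.49 in WT, overlapping groups with a log2 difference of -0.16 and an SE of 0.13 (adjusted p in limma = 0.724), which was -0.05 without ara6-1 replicate 2 and -0.08 without WT replicate 1.

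AT5G51440 and AT1G52560 encode mitochondrial proteins of the family. AT5G51440 had 3.89, 3.92 and 3.74 in ara6-1, against 3.58, 3.42 and 4.33 in WT. The WT group spread widely, with its highest value in WT replicate 3. The log2 difference was 0.07 ± 0.23 (SE; adjusted p in limma = 0.936), and 0.35 without WT replicate 3 (adjusted p in limma = 0.444). AT1G52560 had 4.26, 3.57 and 3.94 in ara6-1, against 4.06, 4.11 and 4.28 in WT. Here the mutant group was the wider one, with its highest value in ara6-1 replicate 1. The log2 difference was -0.22 ± 0.18 (SE; adjusted p in limma = 0.714), and it was -0.39 without ara6-1 replicate 1 and -0.05 without ara6-1 replicate 2.

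**Figure D2:**
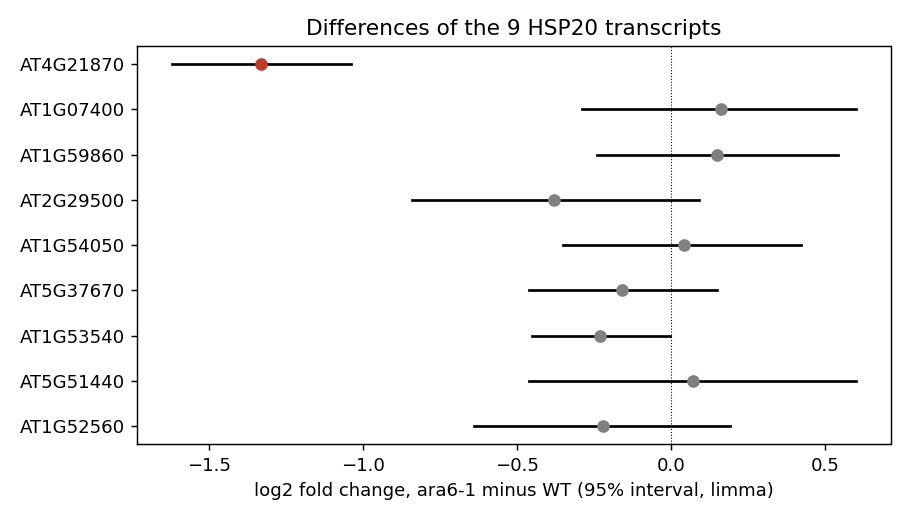
Log2 fold change of ara6-1 minus WT (x axis) for each of the 9 HSP20 transcripts, with points for the fitted value and lines for its 95% interval in limma. AT4G21870 (red) stands at -1.33, and the other 8 (grey) lie between -0.38 and 0.16.

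The spread between arrays was also compared. In 5 of the 8 loci all 3 mutant values lay within the range of the WT values, ties included, against 20.0% of all probe sets and 23.3% of those below the median intensity. The SD was larger in WT for 6 of the 8, against 52.5% of all probe sets, and its median was 0.0990 in ara6-1 and 0.314 in WT. The median SD over all probe sets was 0.14 in ara6-1 and 0.15 in WT. Over those below the median intensity it was 0.186 in ara6-1 and 0.205 in WT, and 54.7% of them had the larger SD in WT. AT4G21870, which was chosen on this contrast, had an SD of 0.21 in ara6-1 and 0.04 in WT. The SD was also larger in ara6-1 for AT5G37670 (0.18 against 0.14) and AT1G52560 (0.35 against 0.11). The highest of the 6 values came from a mutant array in 0 of the 8 loci, from a WT array in 7, and was tied in AT1G07400. Of all probe sets 50.6% had their highest value in a WT array, and of those below the median intensity 56.6%. Of 20 further measured HSP20 loci, 4 (20.0%) had all mutant values within the WT range, 6 had their highest value in a mutant array, and the median SD was 0.151 in ara6-1 and 0.177 in WT. These counts were made after the values had been seen, rest on 3 arrays a group and were not tested.

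Across the 6 arrays the profiles of the 8 loci went in different directions relative to AT4G21870. Pearson's r with AT4G21870 ran from -0.43 for AT1G59860 to 0.85 for AT1G53540, the locus with separated groups, and 4 of the 8 values were negative. These correlations share the 6 arrays and contain the genotype difference that chose AT4G21870, so they only describe the profiles. Among themselves the 8 loci formed 28 pairs, of which 16 had a negative r and 12 a positive one. The values ran from -0.90 for AT1G59860 with AT2G29500 to 0.81 for AT1G59860 with AT1G54050. AT1G07400 and AT5G51440, both highest in WT replicate 3 or tied there, had an r of 0.80.

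Further HSP20 and HSP20-like loci were listed with earlier results of these data known. Of 29 listed, 20 were measured under a gene name, and 0 passed an adjusted p of 0.05 in limma, against 0.0105% of all probe sets. An unadjusted p under 0.05 was found for 2 of the 20, against 9.01% of all probe sets. The median log2 difference of the 20 was -0.0677. In 17 of the 20 (85.0%) the fitted difference was negative, against 50.4% of all probe sets. That number varied with the arrays used, from 13 without ara6-1 replicate 2 to 16 without ara6-1 replicate 1, and it was 16 without both arrays that stood apart and 15 after renewed quantile normalization. The groups were separated in 3 loci, all with lower mutant values (15.0%, against 7.85% of all probe sets).

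AT2G19310, another cytosolic small heat shock protein gene, had the smallest unadjusted p of these 20. It had log2 intensities of 7.23, 7.01 and 7.04 in ara6-1, against 7.33, 7.52 and 7.40 in WT. Every mutant array lay below every WT array, with a log2 difference of -0.32 and a 95% interval of -0.58 to -0.07, which missed the threshold (adjusted p in limma = 0.537). AT2G03020, dim in both groups, had 2.20, 2.61 and 2.38 in ara6-1, against 3.02, 2.46 and 3.05 in WT, overlapping groups with a log2 difference of -0.45 (adjusted p in limma = 0.552). AT4G16540 had a log2 difference of -0.47 ± 0.28 (SE; adjusted p in limma = 0.628) and its highest value, 5.55, in WT replicate 3.

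AT2G19310, with its log2 difference of -0.32, ranked 4 in mean intensity among these loci. The other bright HSP20-like transcripts had fitted differences between -0.19 and 0.12. AT3G12570 had 8.98, 8.80 and 8.88 in ara6-1, against 8.87, 8.92 and 8.91 in WT, a log2 difference of -0.01 with a 95% interval of -0.23 to 0.21. AT5G02480 had a log2 difference of 0.12, AT2G27140 of -0.19, AT1G54850 of -0.10 and AT1G76440 of -0.06 (adjusted p in limma between 0.670 and 0.979 for the 5 of them). The groups of AT1G54850 were separated by a narrow margin, with 6.94, 6.90 and 6.87 in ara6-1, against 7.05, 7.01 and 6.96 in WT.

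Of the chaperones and cochaperones, 11 of 41 listed genes were measured under a name. None passed an adjusted p of 0.05 in limma, and 0 had an unadjusted p under 0.05. Their median log2 difference was 0.12, with 9 positive and 2 negative values, and between 8 and 10 positive values when any single array was left out. Over all probe sets, 0.0105% passed in limma, 9.01% had an unadjusted p under 0.05 and 50.4% had a negative difference, with a median of -0.00182. The direction of this small list was not tested. Hop3 (AT4G12400), a heat-induced cochaperone that links HSP70 and HSP90, had 3.38, 2.94 and 3.38 in ara6-1, against 2.56, 3.15 and 2.70 in WT. Its groups overlapped, with a log2 difference of 0.43 and a 95% interval of -0.02 to 0.88 (adjusted p in limma = 0.564). The related Hop2 (AT1G62740) and Hop1 (AT1G12270) had log2 differences of 0.20 and 0.12 (adjusted p in limma = 0.634 and 0.742).

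AT3G09440, a cytosolic HSP70 gene, had 8.32, 8.32 and 8.26 in ara6-1, against 8.14, 8.16 and 8.25 in WT. The mutant values lay just above the WT values, with a log2 difference of 0.12 and an SE of 0.09 (adjusted p in limma = 0.704). Hsp70-2 (AT5G02490) had a log2 difference of 0.14 (adjusted p in limma = 0.808), and AT4G28480, a DnaJ gene, of 0.04 (adjusted p in limma = 0.921). AT5G48570, which encodes the heat-induced peptidyl-prolyl isomerase ROF2, had 5.53, 5.57 and 5.51 in ara6-1, against 5.67, 5.87 and 5.58 in WT, separated groups with lower mutant values and a log2 difference of -0.17 (adjusted p in limma = 0.651).

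Of 10 other genes listed as heat-induced, 3 were measured under a name, all with negative fitted differences and 0 past the threshold in limma. AT5G07330 had 2.29, 2.41 and 2.26 in ara6-1, against 2.94, 2.58 and 2.85 in WT. Its groups were separated at a dim level, with a log2 difference of -0.47, an SE of 0.12 and an unadjusted p of 0.00549 (adjusted p in limma = 0.507). Of all probe sets, 9.01% had an unadjusted p under 0.05 and 7.85% had all mutant values below the WT values. BZIP60 (AT1G42990), a transcription factor gene of the unfolded protein response, had 5.59, 5.20 and 5.22 in ara6-1, against 5.84, 5.55 and 5.59 in WT, a log2 difference of -0.33 (adjusted p in limma = 0.557). AT1G30070 had a log2 difference of -0.08 (adjusted p in limma = 0.832). The 21 listed heat shock factor genes were not analysed here, since no probe set named one alone. Over the 4 lists together, 34 of 101 genes were measured and 0 passed, against 0.0105% of all probe sets.

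**Figure D3:**
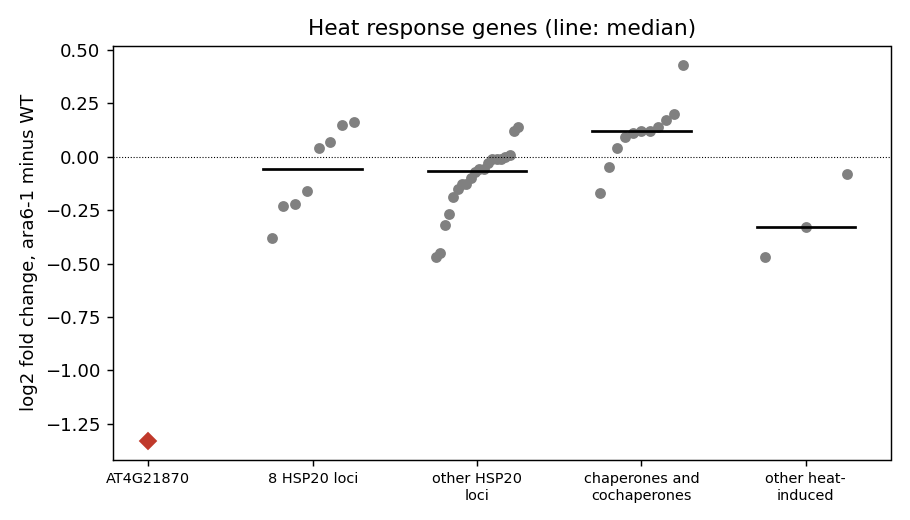
Log2 fold change of ara6-1 minus WT (y axis) for AT4G21870 (red diamond), the 8 related loci and 3 further groups of heat response genes, 1 grey point a gene and a black line at the group median. The 42 grey points lie between -0.47 and 0.43, and AT4G21870 lies at -1.33.

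Of the 5 annotated genes on each side of AT4G21870 on chromosome 4, 7 were measured under a name and 0 passed an adjusted p of 0.05 in limma, or an unadjusted p under 0.05. With only 0.0105% and 9.01% of all probe sets doing so, these counts do not set the neighbours apart from other genes. The nearest gene on one side, AT4G21865, had 5.76, 5.81 and 6.02 in ara6-1, against 5.38, 5.64 and 5.92 in WT, a log2 difference of 0.22 with a 95% interval of -0.15 to 0.58 (adjusted p in limma = 0.685). The nearest on the other side, AT4G21880, had 4.49, 5.02 and 5.03 in ara6-1, against 4.55, 4.95 and 5.13 in WT, a log2 difference of -0.03 with a 95% interval of -0.50 to 0.44 (adjusted p in limma = 0.973). Both pairs of groups overlapped.

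Further out on that side, AT4G21890 had a log2 difference of 0.05, AT4G21895 of -0.10 and AT4G21902 of -0.29 (adjusted p in limma = 0.898, 0.843 and 0.559). AT4G21902 was the 1 neighbour with separated groups, at a dim level of 2.23, 2.17 and 2.14 in ara6-1, against 2.70, 2.41 and 2.29 in WT. Of all probe sets, 15.7% had separated groups and 7.85% had all mutant values below the WT values. On the opposite side lie methionine sulfoxide reductase genes, whose products repair oxidised methionine. MSRB9 (AT4G21850) had overlapping groups and a 95% interval of -0.41 to 0.41 (adjusted p in limma = 0.999). MSRB8 (AT4G21840) had 4.20, 2.93 and 2.66 in ara6-1, against 3.20, 3.09 and 3.28 in WT, with the highest value in ara6-1 replicate 1 and a log2 difference of 0.07 (adjusted p in limma = 0.961).

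**Figure D4:**
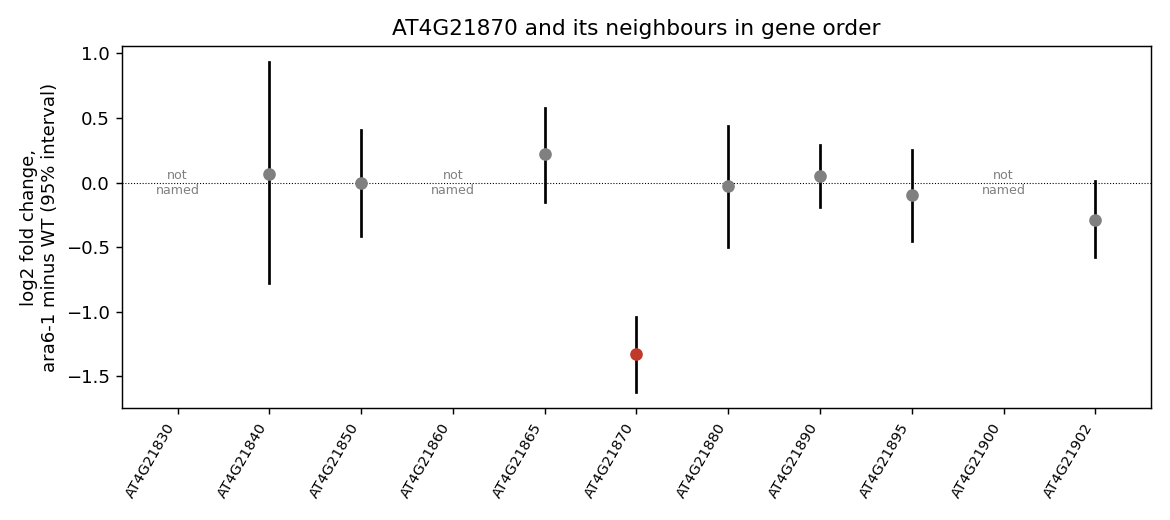
Log2 fold change of ara6-1 minus WT (y axis, lines for the 95% interval in limma) for AT4G21870 (red) and the 5 annotated genes on each side in gene order (grey). The 7 measured neighbours lie between -0.29 and 0.22, and 3 neighbours had no probe set naming them alone.

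The named genes whose profile over the 6 arrays was most like that of AT4G21870 were picked by Pearson's r. There were 160 candidates, with a mean at or above the median intensity and a range of at least 1 on the log2 scale. The first 5 all had every mutant array below every WT array, which follows from the profile they were matched to, so their values are given as a description. AT4G15700, a CC-type glutaredoxin gene, had the highest r, 0.978. Its log2 intensities were 5.18, 4.36 and 4.55 in ara6-1, against 5.99, 6.26 and 5.94 in WT, a log2 difference of -1.37. The chloroplast gene psbN, of a small protein needed to assemble photosystem II, followed at r = 0.957, with 10.87, 10.51 and 10.34 in ara6-1, against 11.28, 11.39 and 11.26 in WT.

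AT7SL-1 (AT4G02970), an RNA gene of the signal recognition particle, had r = 0.955 and log2 intensities of 9.48, 9.22 and 9.03 in ara6-1, against 10.18, 10.23 and 9.91 in WT. ARA6 itself came next at r = 0.953, with a log2 difference of -1.24. AT4G27450 was the fifth at r = 0.926, with 7.31, 6.80 and 7.18 in ara6-1, against 7.67, 7.58 and 7.82 in WT. In AT4G21870 and in these genes other than ARA6, ara6-1 replicate 1 held the highest of the mutant values.

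**Figure D5:**
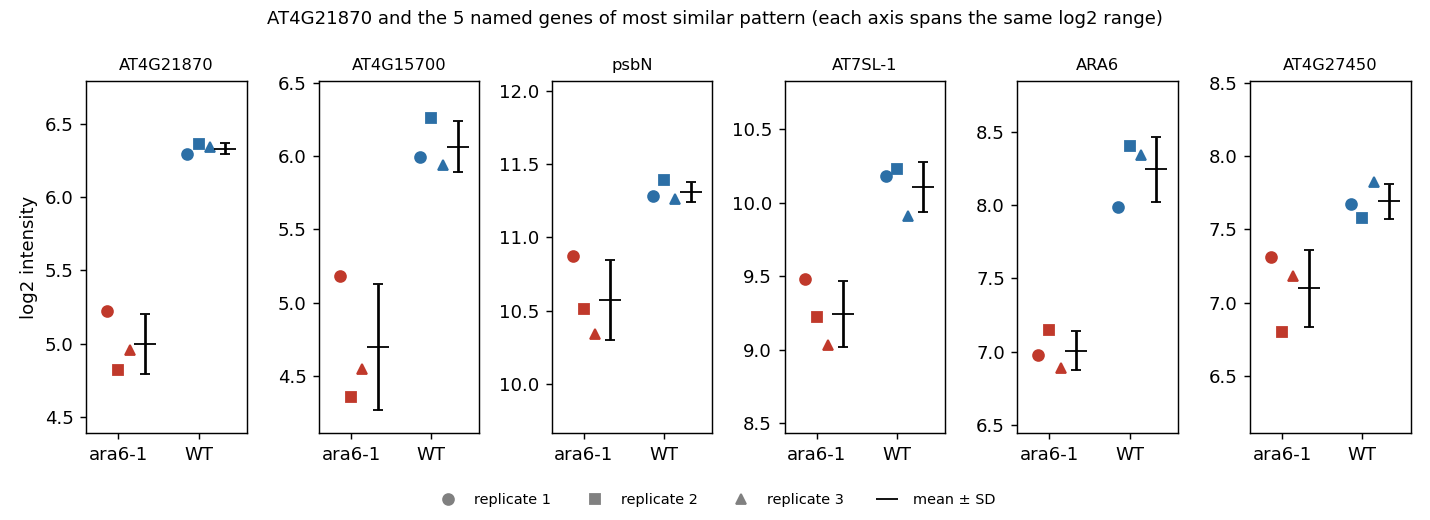
Log2 intensity (y axis, the same log2 span in each panel) of AT4G21870 and of the 5 named genes with the highest Pearson's r to it over 6 arrays, in ara6-1 (red, left) and WT (blue, right), with black bars for the mean ± SD. All 6 transcripts are lower in every ara6-1 array, and ara6-1 replicate 1 is the highest mutant array in each but ARA6.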

How the data were processed

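Total RNA of whole plants received a biotin label with whole-transcript reagents before hybridisation to Affymetrix arrays, per the labels' protocols. The deposited intensity values were linear, 1 per probe set and array. Per the submitters' processing notes, the authors used Affymetrix Expression Console 1.3. Neither the algorithm nor the genome build was given in the sources used here, so no coordinates are given. The arrays had nearly equal medians, with a 5th percentile at log2 intensities of 1.54 to 1.68, and were not normalized again in the main fit. Of 38408 rows, the 28501 written to 1 decimal or fewer were tested. The other 9907, of unstated kind, were left out. Of the tested probe sets, 16704 named 1 gene, 744 several, and 11053 were not listed. Symbols were updated through RefSeq (TAIR10.1).

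The log2 values of ara6-1 and WT were fitted with lmFit and eBayes of limma 3.58.1 (R 4.3.3). Its two-sided p-values were adjusted by Benjamini-Hochberg over 28501 probe sets, with 0.05 as the threshold. Residual degrees of freedom were 4 and prior ones 3.31. Precision is limited by the number of arrays. Members and lists were chosen with earlier results of these data known. Named from each list were up to 6 of the brightest members and up to 3 with the smallest p, then 5 neighbours on each side and the 5 genes most like AT4G21870. Alternatives changed the filter, scaling, prior variance, moderation, weights, replicate block, rows and arrays. Averaging the probe sets of a gene was not run, since each of the 9 loci had 1.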

Additional observations from a re-analysis of the deposited data

How the results depend on the processing

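The log2 fold change of AT4G21870 stayed between -1.44 and -1.24 in 15 alternatives, the lower end without ara6-1 replicate 1, alone or with WT replicate 3, and the upper end without ara6-1 replicate 2. All alternatives used the arrays on which the gene was chosen, so this range is a description and carries no test. Of 117 values, 1 for each of the other 8 loci and each alternative that tested it, 111 kept their direction, and 0 of the 117 passed the threshold in limma. With dim probe sets left out (mean log2 intensity under 2.88), 3 of the 8 loci were not tested. Renewed quantile normalization moved these 3, AT1G53540 from -0.23 to -0.15, AT5G37670 from -0.16 to -0.09 and AT1G59860 from 0.15 to 0.22. Direction turned for AT1G54050, to -0.01 with array weights and -0.09 without the pair of arrays that stood apart, an alternative chosen after seeing the data, and its values without single arrays lay between -0.12 and 0.20. It also turned for AT5G51440, whose values without single arrays lay between -0.11 and 0.35. The cause was not tested. The 3 probe sets past the threshold became 16 where the prior variance followed intensity, 0 with no moderation and 1 without that pair of arrays, and they were 2 to 4 without single arrays. None of the 8 loci and 0 of the 34 heat response genes were among them in any alternative.

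With the replicate number as a block, 2 probe sets passed and the log2 fold change of AT4G21870 was -1.33. The labels give no link between same-numbered arrays beyond the number. Correlations of their deviations were -0.196, 0.174 and -0.150 for numbers 1 to 3. Whether such arrays were grown or processed together was not tested.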
